A study of Mus musculus with 8 samples.

Results

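The genes described here are the T cell receptor segment genes: the 226 of 55487 annotated mouse genes whose biotype in the deposited tables is a T cell receptor constant (C), variable (V), joining (J) or diversity (D) gene. By symbol, 162 belong to the alpha locus (110 Trav, 51 Traj and Trac), 39 to the beta locus (22 Trbv, 13 Trbj, 2 Trbd and 2 Trbc), 15 to the gamma locus (7 Trgv, 4 Trgj and 4 Trgc) and 10 to the delta locus (5 Trdv, 2 Trdj, 2 Trdd and Trdc). The 44 T cell receptor pseudogenes have another biotype and were left out. The genes were measured in splenic regulatory T cells (Tregs) of C57BL/6 mice, sorted for GFP, in 8 libraries made with SMART-Seq v4 (whole cDNA molecules amplified from little RNA). The design text asks how Tregs labelled SRC-3KO differ from wild-type Tregs in connection with an effect against tumors. SRC-3 is a coactivator of nuclear receptors that is encoded by Ncoa3.

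There were 4 groups of 2 libraries: SRC-3KO and control, each without and with a tumor. Both SRC-3KO libraries without a tumor carry the word Tam1 in their titles, which no other library has, with a meaning not given in the sources used here. Control replicate 1 without a tumor is titled WT, with no GFP in its source label, control replicate 2 is titled as Foxp3-Cre, and both controls with a tumor are titled as Foxp3-Cre with GFP. The titles of the SRC-3KO libraries name GFP and no Cre. The labels do not give the age of the mice, the kind of tumor, the SRC-3 allele, or whether the replicates came from separate animals, so p-values measure only the spread between these libraries, which may be technical. Without a tumor the deposited values are raw counts, given below as CPM (counts scaled to a common library total). With a tumor they are FPKM (fragments scaled by transcript length and by the library's mapped fragments), so no test was made between the states.

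A T cell receptor is a pair of chains, alpha with beta on most T cells including Tregs, and gamma with delta on a smaller lineage. Each chain gene is assembled in the thymus by joining 1 V segment to 1 J segment, with a D segment between them in the beta and delta chains, and splicing the result to a constant exon set. A sorted population therefore shows the constant genes in nearly all its receptor transcripts. In joined and spliced transcripts, each V or J gene is seen only in the cells that chose it. The delta locus lies inside the alpha locus, so joining an alpha chain removes the delta segments from that chromosome.

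The J segments that the results below turn on are very short, which bears on how many reads can count for them. They were read from the GENCODE vM21 transcripts of mm10, to which all 226 genes matched by identifier, and all lie on the plus strand. Capitals mark the codons of the Phe-Gly-any-Gly motif that J segments contribute to the rim of the antigen binding loop. Traj2 (chr14:54217836-54217901), Traj27 (chr14:54192303-54192361), Traj35 (chr14:54183774-54183838) and Traj50 (chr14:54167590-54167652) are alpha segments.
Traj2: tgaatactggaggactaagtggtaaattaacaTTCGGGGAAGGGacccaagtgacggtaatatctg
Traj27: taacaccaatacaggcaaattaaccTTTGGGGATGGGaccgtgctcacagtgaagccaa
Traj35: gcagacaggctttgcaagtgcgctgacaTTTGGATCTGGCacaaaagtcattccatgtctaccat
Traj50: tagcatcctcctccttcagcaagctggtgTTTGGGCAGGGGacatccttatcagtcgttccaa
The beta segment with the highest mean level, Trbj2-7 (chr6:41543810-41543856), is shorter still.
Trbj2-7: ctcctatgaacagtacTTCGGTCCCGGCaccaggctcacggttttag
The delta segments Trdj1 (chr14:54123138-54123188) and Trdj2 (chr14:54136779-54136837) carry the motif, and the gamma segment Trgj1 (chr13:19210343-19210402) does not.
Trdj1: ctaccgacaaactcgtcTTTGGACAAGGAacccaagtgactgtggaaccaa
Trdj2: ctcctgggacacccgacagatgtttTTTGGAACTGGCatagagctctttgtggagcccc
Trgj1: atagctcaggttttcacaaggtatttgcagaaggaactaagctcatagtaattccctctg
Read in any frame, the motif was found in 55 of the 70 J genes: 42 of 51 Traj, 11 of 13 Trbj, both Trdj and 0 of 4 Trgj.

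Ncoa3, the gene behind the genotype label, stood at 39.8 and 24.5 CPM in the SRC-3KO libraries and at 131 and 58.7 CPM in the controls without a tumor. With a tumor it stood at 47.5 and 27.7 FPKM in the SRC-3KO pair and at 37.7 and 45.4 FPKM in the controls, so SRC-3KO replicate 1 was above both controls. Values over the whole gene cannot show a deletion of part of it, and SRC-3KO is used below as the name on the label. Foxp3, the defining Treg factor, was at 21.2 and 9.33 against 230 and 22.3 CPM without a tumor, and at 20.1 and 28.8 against 18.4 and 14.7 FPKM with one. Library totals without a tumor ranged from 24159217 to 31075452 counts. Depth with a tumor is unknown, and FPKM sums ranged from 408458 to 514349.

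One library stood apart before any comparison. In control replicate 1 without a tumor, T cell receptor genes held 0.0990% of all counts (Wilson 95% interval 0.0978 to 0.1003%, counting error only), against 0.4592% in control replicate 2 and 0.5675 and 0.5421% in SRC-3KO. Short genes as a class were low in that library. Relative to control replicate 2, the median log2 ratio was -2.57 over 880 genes with under 1000 bases of exon, -0.97 over 990 genes from 1000 to under 2000 bases, 0.17 over 2246 genes from 2000 to under 4000 bases and 0.44 over 4067 longer genes. The same medians for SRC-3KO over control replicate 2 lay between -0.20 and 0.02. Every T cell receptor gene except Trdc has under 1000 bases of exon. The part of gene length in the results below was not tested beyond a fit with the length trend removed. In that fit genes under 300 bases, such as the J segments, were treated as 300 bases long. Results without a tumor that rest on control replicate 1 are given with and without it.

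Without a tumor, most T cell receptor genes were measured higher in SRC-3KO than in the mean of the controls, and none passed the test. Of 140 members tested, 79 (56.43%) stood in both SRC-3KO libraries above either control and 2 stood below. The background is 18.3% and 21% of all 14860 genes tested, and the members' median log2 fold change was 1.31 against -0.02 over all genes. Only 12 members had a log2 fold change below 0 (8.57%, against 50.4% of all genes). With edgeR's quasi-likelihood test and Benjamini-Hochberg adjustment, 0 members and 0 genes in all (0%) had an adjusted p under 0.05, and the smallest adjusted p was 0.91. At an unadjusted p under 0.05 there were 2 members higher and 0 lower, against 0.882% and 2.29% of all genes, and DESeq2 also called 0 members. Leaving out control replicate 1 brought the median down to 0.60, with 0 of 151 members called. Leaving out control replicate 2 raised it to 2.25, with 50 of 150 members called (all higher) along with 7434 genes in all, so 1 library set the size of this difference. With the length trend removed the median was 0.50. The 86 members not tested had too few counts, and 38 of the 226 had no count in any of the 4 libraries.

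Trac, the single alpha constant gene (ENSMUSG00000076928, mm10 chromosome 14, 54220521 to 54224206), was at 2386 and 2245 CPM in the SRC-3KO pair and at 565 and 1610 CPM in the controls. Both SRC-3KO libraries were above both controls. The log2 fold change was 1.24 (SE 0.98, adjusted p = 0.91, edgeR), and 0.60 without control replicate 1 (adjusted p = 0.14, edgeR). The beta constant genes behaved otherwise in the second control. Trbc1 was at 821 and 805 CPM in the SRC-3KO pair and at 69.7 and 911 CPM in the controls, and Trbc2 at 1165 and 1174 against 137 and 1083 CPM. Control replicate 2 was therefore above both SRC-3KO libraries for Trbc1 and below them for Trbc2, and control replicate 1 was far below all 3 others for both. Their log2 fold changes, 0.90 and 1.11 (SE 1.26 and 1.16), became -0.09 and 0.19 without control replicate 1.

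Trbc1 and Trbc2 share much of their sequence: 59.5% and 56.0% of their 50-base stretches occur in no other gene. Reads from the shared part can be divided between them in ways the sources used here do not state. The sum of the 2 genes per kilobase was 2779 and 2771 CPM in the SRC-3KO pair and 290 and 2781 CPM in the controls. Per kilobase, Trac over that sum was 0.918 and 0.866 in SRC-3KO, 0.619 in control replicate 2 and 2.08 in control replicate 1, a range within the controls that spans both SRC-3KO values. No exact two-sided permutation test of a single value can go below p = 0.333 with 2 libraries against 2, so such values are given as a description.

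**Figure D1:**
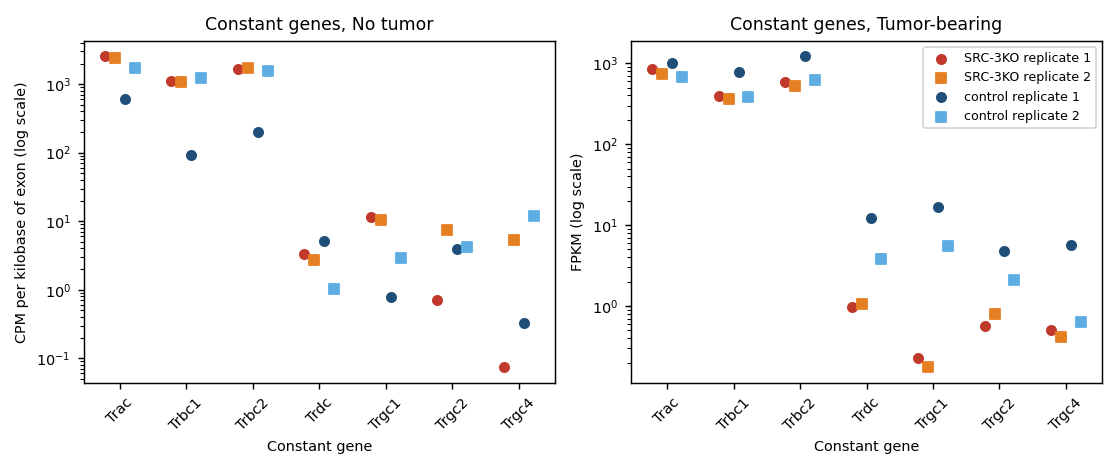
Level of 7 T cell receptor constant genes in each library, without a tumor in CPM per kilobase of exon (left) and with a tumor in FPKM (right), both on log scales; each point is 1 library, and Trgc3 is not drawn because it is listed at 0 in some libraries. Control replicate 1 without a tumor is far below the other 3 libraries for Trac, Trbc1 and Trbc2, and with a tumor both controls are above both SRC-3KO libraries for Trdc and every Trgc gene drawn.

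The alpha V segments, which encode most of the antigen-binding domain of the alpha chain, followed Trac. Of 64 Trav genes tested, 43 were higher in both SRC-3KO libraries and 0 lower, beside 18.3% and 21% of all genes tested. Their median log2 fold change was 1.41, and 0.88 over 65 genes without control replicate 1. The highest mean level belonged to Trav7-4, at 44.3 and 37.4 CPM in the SRC-3KO pair and 7.88 and 19.5 CPM in the controls (log2 fold change 1.72, SE 0.81, adjusted p = 0.91, edgeR). Without control replicate 1 its fold change was 1.14 (adjusted p = 0.15, edgeR). Trav14n-3 was at 19.4 and 21.0 against 4.44 and 16.2 CPM, and Trav4-4-dv10, a segment that either an alpha or a delta chain can use, at 19.3 and 15.8 against 3.52 and 21.8 CPM. Without control replicate 1 their fold changes were 0.39 and -0.24.

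The Trav genes with the smallest p were those in which both controls were low, a pattern that choosing genes by these same values favors. Trav16 was at 9.54 and 6.63 CPM in the SRC-3KO pair and at 1.39 and 0.828 CPM in the controls, a log2 fold change of 2.95 (SE 1.12, adjusted p = 0.91, edgeR). Leaving out control replicate 1 gave 3.35 (adjusted p = 0.13, edgeR), so that library did not set this difference. Trav7-1 was at 8.67 and 7.69 against 1.505 and 2.03 CPM, with fold changes of 2.33 with and 2.08 without that control. Trav16n was at 19.6 and 16.1 against 3.68 and 6.87 CPM, and Trav13n-4 at 1.75 and 3.02 against 0.277 and 0.166 CPM.

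Alpha J segments gave few counts, from 380 in control replicate 1 to 1163 in SRC-3KO replicate 1 over all 51 genes. Of 29 tested, 13 were higher in both SRC-3KO libraries and 0 lower, beside the same 18.3% and 21%, and their median log2 fold change of 1.31 became 0.77 over 38 genes without control replicate 1. Traj27 was at 4.33 and 4.67 CPM in the SRC-3KO pair and at 1.03 and 2.69 CPM in the controls (log2 fold change 1.42, SE 1.19, adjusted p = 0.91, edgeR, and 0.82 without control replicate 1). Traj18 and Traj33 overlapped between the groups, at 3.35 and 2.99 against 1.94 and 4.43 CPM and at 1.42 and 1.45 against 1.19 and 4.64 CPM.

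Among beta genes, 19 of 38 tested were higher in both SRC-3KO libraries (beside 18.3% of all genes) and 2 were lower (beside 21%). Their median log2 fold change was 1.09, or 0.28 over 39 genes without control replicate 1. Trbv3 was at 84.1 and 85.7 CPM in the SRC-3KO pair and 5.54 and 77.9 CPM in the controls. Trbv1 was at 77.4 and 77.5 against 8.08 and 67.3 CPM. Trbv13-2 was at 63.3 and 49.8 against 18.9 and 45.1 CPM. In all 3, control replicate 2 lay close under the SRC-3KO libraries and control replicate 1 far below, and fold changes of 1.20, 1.21 and 0.96 became 0.20, 0.28 and 0.40 without it. The 2 that were lower, Trbj1-5 (0.510 and 0.354 against 0.554 and 1.53 CPM) and Trbj1-7 (0.255 and 0.322 against 0.396 and 0.580 CPM), are J segments near the detection limit.

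Among the J segments with the highest means, Trbj2-7 was at 5.17 and 6.18 CPM in the SRC-3KO pair and 2.57 and 3.93 CPM in the controls. Trbj2-1 was at 5.50 and 5.95 against 0.277 and 6.58 CPM, and Trbj1-1 at 3.02 and 1.67 against 0.0396 and 3.35 CPM. Both beta D segments were counted, although each is shorter than a read, so their counts come from reads that also cover a V or J segment or the germline flank.
Trbd1: gggacagggggc
Trbd2: gggactgggggggc
Trbd1 (chr6:41533201-41533212) was at 11.1 and 8.82 against 0.832 and 7.20 CPM and Trbd2 (chr6:41542163-41542176) at 12.1 and 11.0 against 1.82 and 13.4 CPM.

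Gamma and delta transcripts were scarce without a tumor, and the 2 groups overlapped in most of them. Trdc, the delta constant gene, was at 13.0 and 10.5 CPM in the SRC-3KO pair and at 19.7 and 3.93 CPM in the controls (log2 fold change 0.06, SE 1.04, adjusted p = 0.99, edgeR). The controls lay on either side of both SRC-3KO libraries. Trdc spans 3865 bases of exon and overlaps Gm43434 and Trdv5 on the other strand, and nothing in the sources used here says whether the counting used strand. Per kilobase, Trdc was 0.132 and 0.113% of Trac in the SRC-3KO pair and 0.844 and 0.0591% in the controls.

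Trgc1, a gamma constant gene, was the 1 gamma or delta gene with an unadjusted p under 0.05: 10.8 and 9.65 CPM in the SRC-3KO pair against 0.713 and 2.65 CPM in the controls. Both SRC-3KO libraries were above both controls, with a log2 fold change of 2.75 (SE 1.12, adjusted p = 0.91, edgeR) and 2.02 without control replicate 1 (adjusted p = 0.15, edgeR). The other gamma constant genes split the libraries differently. Trgc2 was at 0.656 and 6.69 against 3.604 and 3.81 CPM, and Trgc4 at 0.0729 and 5.18 against 0.317 and 11.8 CPM, so SRC-3KO replicate 1 was lowest for both. Trgc3 was at 0 and 0.0644 against 0.0792 and 0 CPM, under the limit of 0.0965 to 0.124 CPM that a count of 0 allows in these libraries (3 counts).

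The V segments of these loci were counted at low levels and unevenly between libraries. Trdv1 was at 3.31 and 1.74 CPM in the SRC-3KO pair and at 1.11 and 0 CPM in the controls, and Trdv4 at 0.146 and 2.48 against 2.57 and 0 CPM. Trgv2, the gamma V gene with the highest mean, was at 0.146 and 1.77 against 1.54 and 0.745 CPM. Of the list of gamma-delta T cell genes, Sox13 was counted only in control replicate 1 among these 4 libraries, at 2.22 CPM.

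With a tumor, no T cell receptor gene passed the test. Both SRC-3KO libraries stood below both controls in 14 of 25 gamma and delta genes and in 16 of 38 beta genes tested, and alpha genes lay on both sides. Of 193 members tested, 27 lay above and 46 below both controls in each SRC-3KO library (13.99% and 23.83%), against 27.5% and 24.9% of all 12859 genes tested, and 108 (55.96%) had a log2 fold change below 0, against 51.5%. With limma on log2(FPKM + 1), 0 members had an adjusted p under 0.05, against 14 genes (0.109%), and the smallest adjusted p of a member was 0.12. At an unadjusted p under 0.05 there were 4 members higher and 19 lower, against 10.4% and 6.07% of all genes. By locus the median log2 fold change was 0.06 for 145 alpha genes, -0.44 for 38 beta genes, -1.70 for 6 delta genes and -1.96 for 4 gamma genes, and -0.02 over all genes. All 4 gamma genes tested, with Trdv4 and Trdj2, were under 1 FPKM in both SRC-3KO libraries. They passed the filter through the controls alone, so their fold changes could only be negative. That fixed the sign of the gamma median and pulled the delta median down. Fold changes here are on the log2(FPKM + 1) scale, which understates those of low genes. Of the 33 members not tested, which did not reach 1 FPKM in 2 libraries, 4 are listed at 0 in all 4.

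**Figure D2:**
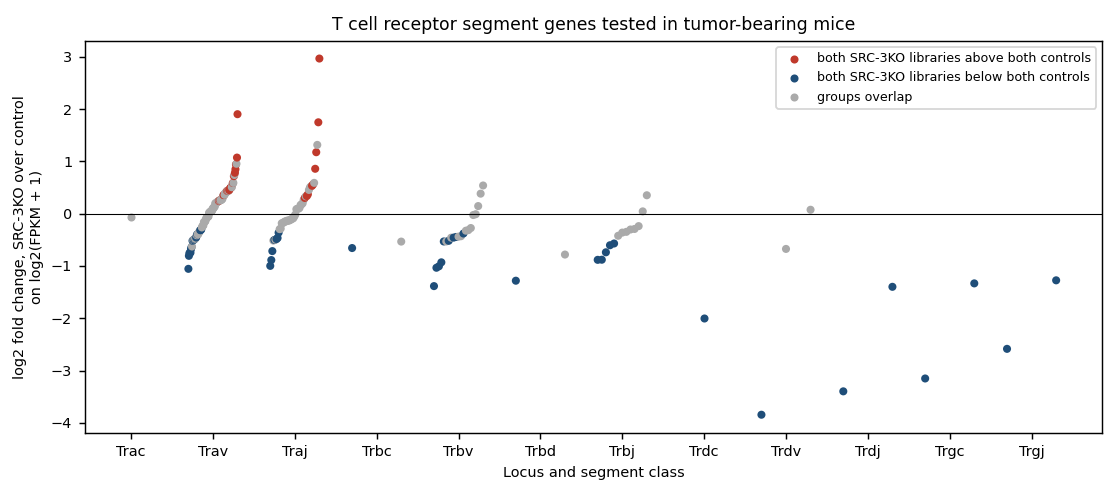
The log2 fold change of SRC-3KO over control, on log2(FPKM + 1), for the 193 T cell receptor genes tested with a tumor, by locus and segment class; each point is 1 gene, and color gives whether the 2 libraries of each group overlap. Gamma and delta genes reach from 0.08 down to -3.85, Trbc, Trbd and most Trbv and Trbj genes lie below 0, and Trav and Traj genes spread around 0 with Traj35 at 2.97.

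Trgc1 was at 0.228 and 0.175 FPKM in the SRC-3KO pair and at 16.7 and 5.45 FPKM in the controls, the largest difference among the constant genes. Both controls were far above both SRC-3KO libraries, with a log2 fold change of -3.15 (SE 0.50, adjusted p = 0.12, limma). Trgc2 was at 0.565 and 0.800 against 4.81 and 2.08 FPKM (log2 fold change -1.33, SE 0.37, adjusted p = 0.21, limma). Trgc3 (0 and 0.117 against 1.38 and 0.132 FPKM) and Trgc4 (0.513 and 0.417 against 5.61 and 0.631 FPKM) were too low to test, and in both the second control lay close to the SRC-3KO libraries. The 4 Trgc genes summed to 1.31 and 1.51 FPKM in the SRC-3KO pair and 28.5 and 8.29 FPKM in the controls.

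Trdc was at 0.961 and 1.06 FPKM in the SRC-3KO pair and at 12.4 and 3.81 FPKM in the controls (log2 fold change -2.0, SE 0.50, adjusted p = 0.19, limma). It amounted to 0.113 and 0.143% of Trac in the SRC-3KO pair and to 1.23 and 0.556% in the controls. The summed Trgc genes were 0.133 and 0.170% of the summed Trbc genes in the SRC-3KO pair and 1.42 and 0.823% in the controls. In bulk samples, fewer cells of a type and less RNA per cell cannot be told apart.

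In each of the following delta and gamma segments both controls were above both SRC-3KO libraries, and control replicate 1 was the highest. Trdv4, the delta V gene nearest the delta constant gene among those on its strand, was at 0.490 and 0.228 FPKM in the SRC-3KO pair and at 36.9 and 8.96 FPKM in the controls (log2 fold change -3.85, SE 0.63, adjusted p = 0.13, limma). Trdj2 is listed at 0 in SRC-3KO replicate 1 and at 0.0001 FPKM in replicate 2, and was at 23.5 and 3.53 FPKM in the controls. Trdj1 was at 1.51 and 2.79 against 11.2 and 4.43 FPKM. Trgj1 is listed at 0 in both SRC-3KO libraries and was at 7.71 and 3.13 FPKM in the controls (adjusted p = 0.12, limma), and Trgj2, the J segment beside Trgc2, was at 0.899 and 0.785 against 4.60 and 2.54 FPKM.

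Over all 25 gamma and delta genes, tested or not, 14 lay below both controls in each SRC-3KO library, 0 lay above, 7 overlapped and 4 are listed at 0 in every library. Over the 27033 genes above 0 FPKM in any library, tested or not, 16.9% lay below and 23.6% above. The exceptions among delta V genes were Trdv1, at 5.17 and 2.65 against 9.27 and 4.58 FPKM, Trdv2-1, at 0.876 and 0.279 against 0.293 and 0.243 FPKM, and Trdv2-2, at 1.37 and 0.930 against 1.92 and 0.409 FPKM. Trgv2 and Trgv6, the gamma V genes that separated the groups, were at 0.174 and 0.327 against 3.01 and 0.974 FPKM and listed at 0 in both SRC-3KO libraries against 1.97 and 0.0873 FPKM. Control replicate 1 was the highest library for each of these gamma V genes and for each Trgc gene. Without it, the summed Trgc level in SRC-3KO was 0.170 of the control and Trdc gave -1.26 (adjusted p = 0.069, limma), and 0 gamma genes reached 1 FPKM in 2 libraries.

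Some markers of other cells were also lower in both SRC-3KO libraries, but not all followed the gamma and delta genes between the controls. Of the gamma-delta T cell genes listed, these were lower in both SRC-3KO libraries: Sox13 (0.0786 and 0.0131 against 1.09 and 0.874 FPKM), Blk (0.0523 and 0 against 2.70 and 1.14 FPKM), Cd163l1 (0 and 0 against 2.46 and 0.0188 FPKM) and Il23r (0.321 and 0.428 against 1.80 and 1.21 FPKM). Maf, which Tregs also express, overlapped at 9.92 and 13.5 against 11.2 and 7.71 FPKM, so the list's sum ran from 10.5 to 14.1 FPKM in the SRC-3KO pair and from 11.3 to 19.8 FPKM in the controls. B cells also express Blk. The 7 B cell genes summed to 273 and 252 FPKM in the SRC-3KO pair and to 1663 and 2295 FPKM in the controls, with Pax5 at or near 0 in all 4 libraries, and of these Cd79a and Igkc fell (adjusted p = 0.041 and 0.030, limma). The 6 myeloid genes summed to 0.826 to 3.58 FPKM except in control replicate 2, at 4622 FPKM. The 6 CD8 T and NK genes summed to 58.7 and 38.4 FPKM in the SRC-3KO pair and to 160 and 112 FPKM in the controls, without overlap. Most of that sum was Nkg7, a granule protein of cytotoxic cells (50.4 and 28.1 against 151 and 92.3 FPKM), and Gzma was also lower (0.280 and 1.35 against 2.51 and 11.8 FPKM), while Cd8b1 was higher (7.69 and 7.74 against 4.67 and 6.16 FPKM). None of these 3 passed the test. The part of other cells in the gamma and delta result was not tested.

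Without a tumor Trgc1 was higher in the SRC-3KO pair and with one it was lower, each with groups that did not overlap. Among the 135 receptor genes tested in both states, 16 showed this order (11.9%, beside 6.12% of the 11674 genes tested in both) and 0 the opposite one (beside 8.83%). A further 12 were higher in both states (8.89%, beside 3.15%) and 0 lower in both (beside 3.08%). These counts depend on the shares within each state. Of members tested without a tumor, 56.43% were higher (beside 18.3% of all genes) and only 2 were lower, which left little room for the opposite order. Of those tested with a tumor, 23.83% were lower and 13.99% higher (beside 24.9% and 27.5%). Whether the 16 genes exceed what these shares give was not tested. The values come from tables of different units, and the difference between the states was not tested.

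Most beta genes with a tumor were highest in control replicate 1, and the rest of the pattern was smaller. Of 38 tested, 33 had a log2 fold change below 0 (86.84%, beside 51.5% of all genes), 16 were lower in both SRC-3KO libraries (42.11%, beside 24.9%) and 0 were higher (beside 27.5%). Trbc1 was at 399 and 357 FPKM in the SRC-3KO pair and at 789 and 380 FPKM in the controls, and Trbc2 at 582 and 529 against 1220 and 627 FPKM. Trbc2 separated the groups and Trbc1 did not, with log2 fold changes of -0.66 (SE 0.39) and -0.53 (SE 0.40) and adjusted p of 0.44 and 0.52 in limma. Leaving out control replicate 1 moved the median of the 38 beta genes from -0.44 to -0.04, and Trbc2 to -0.18.

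Trac did not separate the groups, at 853 and 740 FPKM in the SRC-3KO pair and 1008 and 685 FPKM in the controls (log2 fold change -0.07, SE 0.32, adjusted p = 0.93, limma). The ratio of Trac to summed Trbc was 0.870 and 0.835 in the SRC-3KO pair and 0.502 and 0.681 in control, without overlap. Set against the 4 CD3 chains, which carry the receptor to the surface and its signal into the cell, summed Trbc was 0.797 and 0.771 in the SRC-3KO pair and 1.36 and 1.03 in control. Trac over the same CD3 sum was 0.693 and 0.644 in the SRC-3KO pair and 0.685 and 0.699 in control, with overlap.

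Gene length moved with the difference between the groups in this state too. The median log2 ratio of SRC-3KO to control was -0.41 over 1120 genes with under 1000 bases of exon, -0.30 from 1000 to under 2000 bases, -0.13 from 2000 to under 4000 bases and 0.09 above that. Control replicate 1 over control replicate 2 gave 0.53, 0.37, 0.19 and 0.03 in the same order. SRC-3KO over control replicate 2 gave -0.09, -0.06, -0.01 and 0.11, so most of the trend lay in control replicate 1. With the length trend removed, the medians were 0.32 for alpha, -0.19 for beta, -1.59 for delta and -1.72 for gamma genes, and -0.01 over all genes. That fit treated genes under 300 bases, such as the J segments, as 300 bases long. The gamma genes entered it through the controls alone. It therefore cannot tell how much of the delta and gamma difference goes with length. The part of length in the beta, delta and gamma results was not tested further.

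Trbv2 had the smallest p among beta genes, at 15.6 and 11.3 FPKM in the SRC-3KO pair and at 44.7 and 29.6 FPKM in the controls (log2 fold change -1.38, SE 0.28, adjusted p = 0.16, limma). Both controls were well above both SRC-3KO libraries, and the value without control replicate 1 was -1.10 (adjusted p = 0.084, limma). Trbv17 was at 3.90 and 3.52 against 9.01 and 7.93 FPKM (log2 fold change -1.01, SE 0.22, adjusted p = 0.16, limma). Trbd2 was at 22.6 and 18.4 against 66.3 and 39.2 FPKM, and Trbj2-5, a J segment of the cluster downstream of it, at 52.6 and 46.2 against 113 and 74.6 FPKM.

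Of the Trbv genes with the highest means, Trbv1 was at 38.4 and 42.8 FPKM in the SRC-3KO pair and 61.6 and 51.0 FPKM in the controls, without overlap. Trbv13-2 was at 42.8 and 41.9 against 86.0 and 38.6 FPKM and Trbv16 at 52.8 and 37.7 against 55.7 and 29.0 FPKM, both with overlap. Trbj2-7 was at 106 and 95.2 against 169 and 97.2 FPKM, and Trbj2-1 at 65.5 and 59.4 against 135 and 67.4 FPKM. In each of the last 4, control replicate 1 was the highest library and control replicate 2 lay near or below SRC-3KO.

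Alpha segments with a tumor included a few genes that stood out in a single library. Traj35 was at 130 FPKM in SRC-3KO replicate 1 and at 3.56 FPKM in replicate 2, against 3.15 and 1.35 FPKM in the controls. Traj50 was at 99.8 FPKM in SRC-3KO replicate 1 and at 9.30 FPKM in replicate 2, against 15.0 and 9.45 FPKM. These 2 of 51 genes held 14.6% and 11.2% of all Traj FPKM in that library. Their log2 fold changes of 2.97 (SE 1.51) and 1.32 (SE 1.04) did not pass (adjusted p = 0.38 and 0.54, limma) and fell to 0.55 and -0.33 without that library. Fitted without SRC-3KO replicate 2, both were called, at 5.39 and 2.96 (adjusted p = 6.4e-04 and 0.025, limma).

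**Figure D3:**
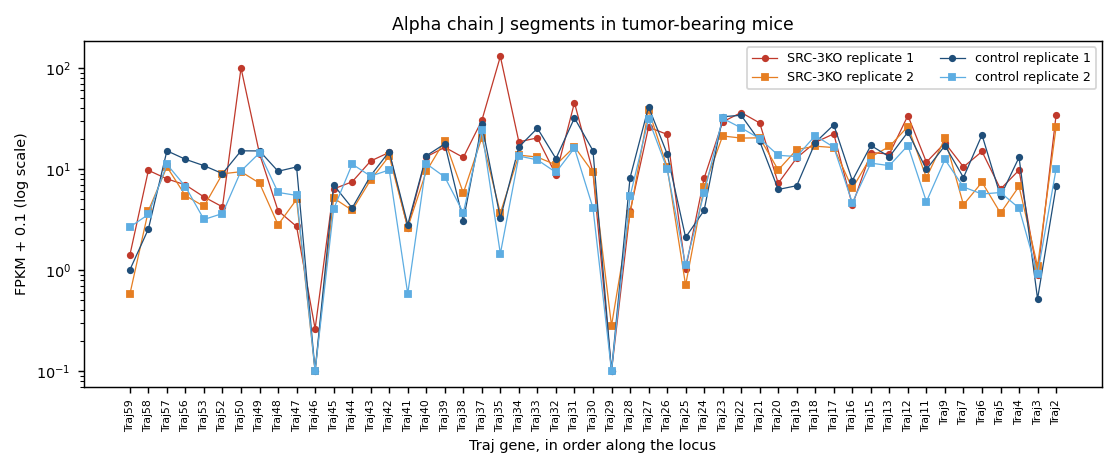
Level of each of the 51 alpha J segments with a tumor, as FPKM + 0.1 on a log scale, in order of position along the locus; each line is 1 library. SRC-3KO replicate 1 stands alone at Traj50 and Traj35, and both SRC-3KO libraries lie above both controls at Traj2, at the right end.

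Traj2, the alpha J segment nearest to Trac in this annotation, was the member with the smallest p. It was at 34.1 and 25.8 FPKM in the SRC-3KO pair and at 6.64 and 9.88 FPKM in the controls, and the groups lay well apart. The log2 fold change was 1.75 (SE 0.27, adjusted p = 0.12, limma). It was between 1.49 and 2.0 in the 4 fits that leave out 1 library, and Traj2 was called in the fits without control replicate 1 (adjusted p = 0.046, limma) and without control replicate 2 (adjusted p = 0.028, limma). Without a tumor Traj2 gave 2.04 and 0.547 CPM in the SRC-3KO pair and 0.594 and 0 CPM in the controls, with overlap. Traj38 was at 12.9 and 5.69 against 2.97 and 3.59 FPKM.

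Of the 96 Trav genes tested, 18 were higher and 15 lower in both SRC-3KO libraries, each a smaller share than over all genes. Trav7-4 was at 28.5 and 34.6 FPKM in the SRC-3KO pair and 35.5 and 22.9 FPKM in the controls, Trav4-4-dv10 at 25.5 and 16.9 against 23.3 and 23.4 FPKM, and Trav7-2 at 17.0 and 16.4 against 25.3 and 17.4 FPKM. Traj27 was at 25.8 and 38.2 against 41.1 and 30.99 FPKM. Trav9d-1 (11.03 and 10.005 against 7.45 and 5.94 FPKM), Trav6-5 (8.15 and 4.92 against 3.81 and 2.81 FPKM) and Trav14d-3-dv8 (9.81 and 7.30 against 4.94 and 0.0794 FPKM) were the Trav genes with the smallest p among those higher in SRC-3KO. None passed, with adjusted p from 0.29 to 0.32 in limma.

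Invariant T cells use fixed alpha chains: Trav11 with Traj18 in natural killer T cells and Trav1 with Traj33 in mucosal-associated invariant T cells. Trav11 had 0 counts in each library without a tumor. It has no 50-base stretch of its own, sharing all with other genes such as Trav11d, and with a tumor it was at 1.63 and 2.63 against 1.13 and 2.39 FPKM. Traj18 was at 18.2 and 16.7 against 18.2 and 21.3 FPKM and Traj33 at 20.2 and 13.0 against 25.2 and 12.2 FPKM, both with overlap. Trav1 was at 3.10 and 4.50 FPKM in the SRC-3KO pair and at 10.9 and 7.19 FPKM in the controls (log2 fold change -1.05, SE 0.30, adjusted p = 0.22, limma), and without a tumor at 3.28 and 8.75 against 0.436 and 2.90 CPM. Zbtb16, the defining factor of both cell types, was at 0 to 0.0310 FPKM with a tumor, and at 0 CPM without one in all libraries but control replicate 1, at 1.43 CPM.

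The make-up of each chain was also set out as shares, which do not depend on library scaling. Without a tumor, the Trbv shares of the 2 SRC-3KO libraries differed by 6.36% of their signal per kilobase, control replicate 2 differed from them by 10.5 and 9.19%, and control replicate 1 from all 3 others by 29.0 to 30.9%. In control replicate 1, Trbv13-2 alone held 26.4% of 1806 Trbv counts (Wilson 95% interval 24.4 to 28.5%, counting error only), against 7.42 to 8.67% of 14551 to 20849 counts in the other libraries. The effective number of Trbv genes (the exponential of the Shannon entropy of their shares, equal to the number of genes if all were used alike), taken from counts, was 15.2 and 15.3 in the SRC-3KO pair and 10.9 and 14.4 in control.

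**Figure D4:**
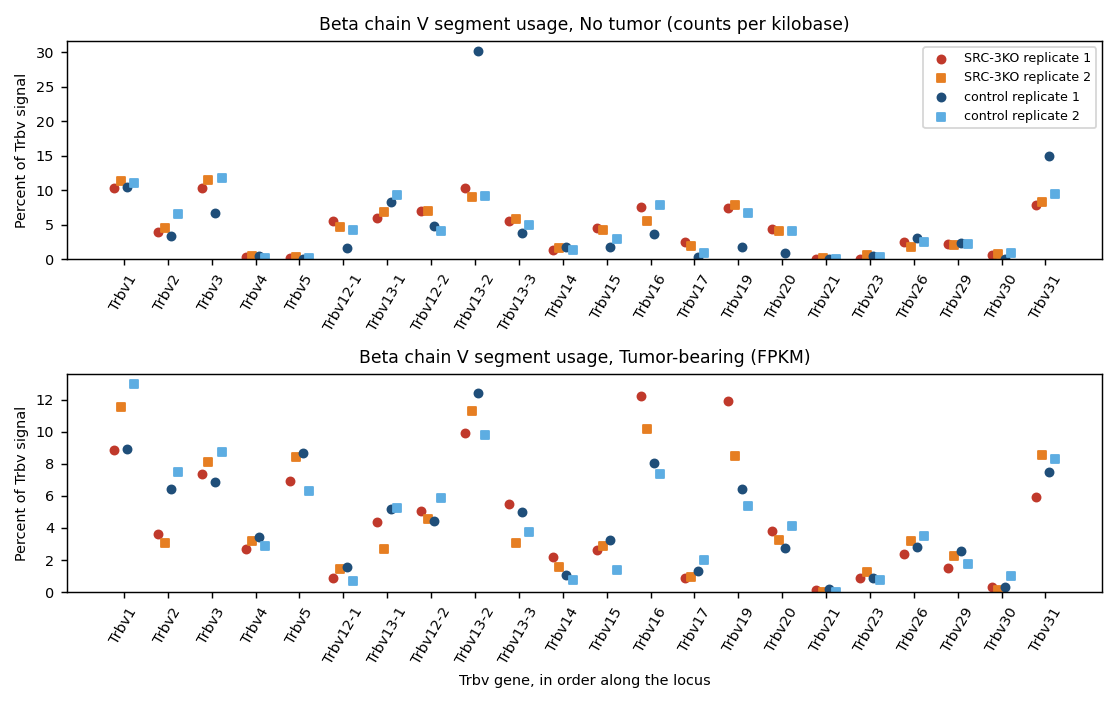
Share of the Trbv signal held by each of the 22 beta V genes in each library, from counts per kilobase without a tumor (top) and from FPKM with a tumor (bottom), in order of position along the locus. Trbv13-2 stands out in control replicate 1 without a tumor, and with a tumor Trbv16 and Trbv19 held larger and Trbv2 smaller shares in both SRC-3KO libraries.

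With a tumor the Trbv effective number was 16.0 and 15.9 in the SRC-3KO pair and 16.8 and 16.2 in control. Trbv16 held 12.2 and 10.1% of the Trbv signal in the SRC-3KO pair and 8.04 and 7.36% in the controls, and Trbv19 11.9 and 8.50% against 6.43 and 5.36%. Trbv2 held 3.61 and 3.05% in the SRC-3KO pair and 6.45 and 7.51% in the controls. The Trbv shares of the 2 SRC-3KO libraries differed by 12.2%, those of the controls by 12.7%, and those of libraries from different groups by 10.9 to 17.0%, so the distance between groups was not clearly larger than within them. Trbj shares differed by 2.39% between the SRC-3KO libraries, 5.81% between the controls and 6.75 to 9.65% between groups, so every distance between groups was the larger. For Trav the values were 14.8, 14.6 and 16.7 to 19.6%, again all larger between groups, and for Traj 28.0, 15.3 and 15.5 to 30.9%. The second Trbj cluster, which lies between Trbd2 and Trbc2, held 62.4 and 62.8% of Trbj signal in the SRC-3KO pair and 68.2 and 65.3% in the controls.

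Alpha J usage without a tumor was broader in SRC-3KO, with effective numbers of 32.6 and 32.2 against 25.8 and 21.2 in control. The numbers of Traj genes with at least 10 counts were 35 and 33 against 13 and 21, and they follow the total Traj counts, which were 1163 and 1155 in the SRC-3KO pair and 380 and 869 in control. The part of depth in the effective numbers was not tested. With a tumor the Traj effective number was 38.4 in SRC-3KO replicate 2 and 38.7 and 38.0 in control, and 30.3 in SRC-3KO replicate 1, the library with high Traj35 and Traj50. For Trav it was 43.4 and 42.8 against 42.6 and 39.0 without a tumor and 76.8 and 75.8 against 76.0 and 71.2 with one.

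The higher Trav number with a tumor goes with a difference between the tables in how near-identical genes are listed. In the C57BL/6 genome a block of Trav genes is present in several copies, named with d and n. Of 110 Trav genes, 39 have no 50-base stretch that occurs in no other gene. In the table of counts, 32 of these 39 had 0 counts in all 4 libraries and none had more than 6 counts summed over them, while the 42 Trav genes with at least 50% of their stretches to themselves had 3 to 1710 summed counts. In the table of FPKM, 37 of the same 39 reached 1 FPKM in a library. Neither table comes with a statement, in the sources used here, of how reads that match several genes were assigned.

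Trav14d-1, Trav14n-1 and Trav14-1 show this at the level of the sequence. Their last 60 bases, with the bases at which Trav14-1 differs from its copies in capitals, are as follows.
Trav14d-1: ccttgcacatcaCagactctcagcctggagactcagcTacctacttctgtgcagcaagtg
Trav14n-1: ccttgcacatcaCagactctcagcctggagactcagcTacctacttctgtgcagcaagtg
Trav14-1: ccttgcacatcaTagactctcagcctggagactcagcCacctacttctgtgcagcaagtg
They lie at chr14:52856107-52856166, chr14:53167119-53167178 and chr14:53554499-53554558 of mm10, on the plus strand. The first 2 genes are identical over their whole transcript and had 2 and 0 counts summed over the 4 libraries without a tumor. Trav14-1 had 437 and 420 counts in the SRC-3KO pair and 46 and 195 in control. With a tumor the 2 identical genes were listed at nearly the same value in each library: 7.43 and 8.12 (SRC-3KO) and 8.81 and 5.83 FPKM (control) for Trav14d-1, and 7.58, 8.20, 8.99 and 5.89 FPKM for Trav14n-1.

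In all, 30 members form 15 pairs with identical transcripts. Of these pairs, 11 had 0 counts in every library without a tumor and the highest sum was 5 counts, while with a tumor 13 pairs agreed within 0.2 FPKM in each library. Values of single Trav d and n copies are therefore uncertain in both tables, including those of Trav9d-1, Trav14d-3-dv8, Trav16n and Trav13n-4 above. A further 9 members have exons that overlap another gene, among them Trdc, Trdv2-1, Trdv2-2, Trbv4 and Trbv5.

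**Figure D5:**
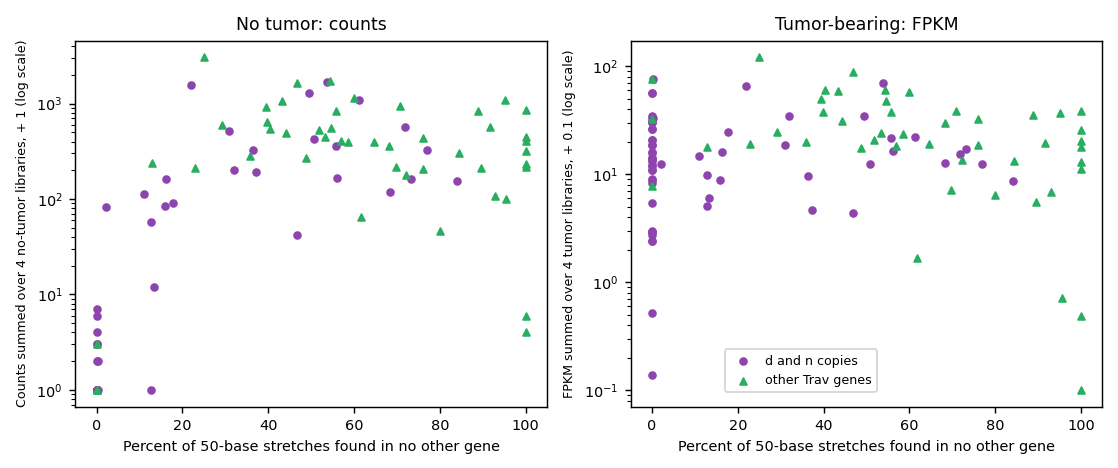
Summed signal of each of the 110 Trav genes against the percentage of its 50-base stretches found in no other gene, as counts + 1 without a tumor (left) and FPKM + 0.1 with a tumor (right), both on log scales; each point is 1 gene, and points can coincide. At 0% on the horizontal axis 39 genes sum to at most 6 counts, while 37 of them reached 1 FPKM in a library with a tumor.

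Partners of the receptor gave the following. Of the CD3 chains without a tumor, Cd3d (1224 and 1194 against 97.8 and 1122 CPM) and Cd3g (1219 and 1242 against 57.6 and 962 CPM) were low in control replicate 1, like Trac, Trbc1 and Trbc2. Cd3e was highest in that library (919 and 774 against 1598 and 631 CPM) and Cd247, the zeta chain, was at 54.3 and 71.5 against 113 and 105 CPM. With a tumor, Cd3e was at 465 and 413 against 388 and 316 FPKM, Cd3d at 246 and 220 against 337 and 202 FPKM, Cd3g at 377 and 371 against 565 and 314 FPKM, and Cd247 at 143 and 145 against 182 and 148 FPKM. None of the 4 passed in either state.

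None of the tested genes of 4 further lists passed in either state, by edgeR without a tumor (smallest adjusted p of any gene 0.91) or limma with one. Of 8 coreceptor and accessory genes, all were tested without a tumor (median log2 fold change -0.39) and 7 with one (0.07), led by Thy1 and Cd2 and by Cd8b1 and Cd4. Of 11 recombination and chain assembly genes, 7 and 5 were tested (1.15 and 0.12), and Rag1 and Rag2, which cut the segments in developing cells, were at 0 in all 8 libraries. All 13 proximal signalling genes were tested in both states (-0.18 and 0.12). The smallest p among them with a tumor were those of Ptpn6, an inhibitory phosphatase (112 and 142 against 208 and 267 FPKM), and Plcg1, a phospholipase of the signalling cascade (8.75 and 9.08 against 3.74 and 5.19 FPKM). All 9 transcription factors of the receptor loci were tested in both states (-0.53 and 0.02), with Bcl11b at 69.7 and 56.6 against 48.0 and 36.4 FPKM.

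Other marker lists placed the libraries as follows. The 6 Treg genes summed to 4958 and 4531 CPM in the SRC-3KO pair and 1807 and 3833 CPM in the controls without a tumor, and to 2236 and 2248 against 1874 and 1368 FPKM with one. The 7 T cell genes summed to 2960 to 3798 CPM and 1195 to 1760 FPKM. The 6 CD8 T and NK genes summed without a tumor to 558 and 374 CPM in the SRC-3KO pair and 1331 and 134 CPM in the controls. NKT and MAIT genes, mostly Slamf6, summed to 36.0 to 151 CPM and 11.1 to 29.8 FPKM, and immature thymocyte genes stayed at or below 1.83 CPM and 0.124 FPKM. Without a tumor, gamma-delta T cell genes summed to 21.8 to 40.4 CPM outside control replicate 1, at 138 CPM, B cell genes ran from 103 to 1509 CPM and myeloid genes from 0.317 to 218 CPM. These sums are not a measure of cell numbers.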

How the data were processed

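Libraries were grouped by the condition and tumor labels. Per the submitters' processing notes, the genome build was mm10 and the tools were STAR, featureCounts and edgeR after FastQC and Trim Galore. The deposited count table holds raw gene counts by the authors for the 4 libraries without a tumor. The deposited FPKM table, which the authors made with StringTie per its file and column names, holds the 4 with a tumor. No version, annotation release, strand or multi-mapping setting is stated in the sources used here. The members and lists were chosen with earlier results of these data known.

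Counts were fitted with edgeR 4.0.16 (R 4.3.3; filterByExpr, TMM factors 0.916 to 1.086, quasi-likelihood test, common dispersion 0.791). FPKM were fitted with limma 3.58.1 on log2(FPKM + 1) with an intensity trend, keeping genes that reached 1 FPKM in 2 libraries or more (degrees of freedom 5.37). All genes were fitted and adjusted together by Benjamini-Hochberg, with a threshold of 0.05. Both fits were run on simulated data. Recovery of planted changes was required for counts only at a spread below the observed one, and for FPKM at a chosen spread. The recovery rates are not given here. DESeq2 1.42.0, other scalings, filters and pseudocounts, a replicate block, removal of the length trend (chosen after seeing the data) and leaving out each library were alternatives.

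Named genes were, by rule, all constant genes; the 3 Trav, Traj, Trbv and Trbj genes and the Trdv and Trgv gene with the highest mean in each table; up to 5 each way with the smallest p among members whose groups do not overlap; the segments of invariant T cells; all CD3 chains; and the 2 genes with the smallest p of each partner list. Other genes were named after their values were seen. Same-numbered libraries with a tumor did not deviate together (r = 0.036), so the numbers were not taken to pair them. That value cannot exclude a pairing that affects some genes. Coordinates, exon lengths and sequences are from GENCODE vM21. Levels of different genes were compared per kilobase of exon only. A gene of the marker lists is not reported here by name.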

Additional observations from a re-analysis of the deposited data

Results flagged for a closer look

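Among the 135 T cell receptor genes tested in both states, 16 (11.9%) were higher in both SRC-3KO libraries without a tumor and lower in both with one, beside 6.12% of the 11674 genes tested in both states. Receptor genes were also more often higher in both states (8.89%, beside 3.15%). Without a tumor, 56.43% of those tested were higher in both SRC-3KO libraries, beside 18.3% of all genes, and only 2 were lower. With a tumor, 23.83% of those tested were lower, beside 24.9% of all genes. Whether the 16 genes exceed what these shares give was not tested. Fold changes of the 16 genes are given on the log2 scale, first without and then with a tumor. The values come from tables of different units, and the difference between the states was not tested for any gene.

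Of the beta genes, Trbc2 was at 1.11 and -0.66, Trbv1 at 1.21 and -0.46, Trbv3 at 1.20 and -0.38, Trbv12-2 at 1.99 and -0.44, Trbv17 at 2.60 and -1.01, and Trbj2-3 at 1.91 and -0.88. Of the alpha genes, Trav1 was at 2.04 and -1.05, Trav6-2 at 1.01 and -0.52, Trav7-1 at 2.33 and -0.30, Trav7d-4 at 1.86 and -0.81, Trav8d-1 at 1.41 and -0.49, Trav16 at 2.95 and -0.75, Trav17 at 1.06 and -0.75, Trav21-dv12 at 0.84 and -0.50, and Traj49 at 0.70 and -0.50. The gamma gene was Trgc1, at 2.75 and -3.15. Without control replicate 1 the first value of each stayed above 0 and ran from 0.15 (Trav21-dv12) to 3.35 (Trav16). It was 0.19 for Trbc2, 0.28 for Trbv1, 0.20 for Trbv3, 1.10 for Trbv12-2, 1.56 for Trbv17 and 1.69 for Trbj2-3. Among the others it was 1.14 for Trav1, 0.23 for Trav6-2, 2.08 for Trav7-1, 1.03 for Trav7d-4, 0.76 for Trav8d-1, 0.38 for Trav17, 0.37 for Traj49 and 2.02 for Trgc1.

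Of the partner and marker genes tested in both states, 8 also separated the groups in opposite directions. Over all 11674 genes tested in both states, 6.12% were higher without and lower with a tumor, and 8.83% the reverse. Xrcc6, a subunit of the Ku complex that joins cut ends, was at 1.46 and -0.48 (0.62 without a tumor when control replicate 1 was left out), and Cd79b, a chain of the B cell receptor, at 2.73 and -0.59 (1.98). In the other direction were Foxp3 at -3.01 and 0.52 (-0.48), Gata3 at -1.71 and 0.50 (-0.70), Thy1 at -1.90 and 0.47 (-0.24), Zap70 at -1.45 and 0.57 (-0.11), Cd4 at -0.65 and 0.43 (-0.45) and Bcl11b at -0.53 and 0.58 (-0.12).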

How the results depend on the processing

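Depth limits the J, gamma and delta genes without a tumor, and 2 libraries a group limit all tests. With RLE factors the median over all genes without a tumor moved from -0.02 to -0.15 and that of members to 1.19. DESeq2 called 87 genes and no filter 70, with 0 members in both. With a tumor, a pseudocount of 0.1 called 7 genes and no filter 1. The replicate block, on numbers whose meaning the labels do not give, called 72 genes and 3 members (Trgc1, Trdv4 and Trgj1, all lower). Removal of the length trend brought the members' median without a tumor to 0.50. It turned Cd3e to 0.039, Traj18 to -0.94, Trbj2-7 to -0.36, Trbv13-2 to -0.0036 and Trgc2 to -0.45 there, and with a tumor Trac to 0.15, Traj18 to 0.10, Traj27 to 0.083, Traj33 to 0.15 and Trav4-4-dv10 to 0.10. RLE and DESeq2 both turned Trdc to -0.10 without a tumor. With a detection minimum of 1 count, SRC-3KO minus control was 7.5 Trav and 5.5 Traj genes without a tumor. With a tumor and a detection minimum of 0.1 FPKM it was 0.5 Trav, 1.0 Traj and 0.5 Trbv genes.

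Leaving out 1 library gave these ranges without a tumor: 0 to 7434 genes called, 0 to 50 members called, members' median 0.60 to 2.25. The most genes and members were called without control replicate 2 and the median was lowest without control replicate 1, with 1 gene called, while leaving out either SRC-3KO library called 0 genes. Summed SRC-3KO over control ranged from 1.44 to 4.10 for Trac, 0.994 to 9.61 for Trbc, 0.596 to 2.99 for Trdc and 0.906 to 3.52 for Trgc. Log2 fold changes that crossed 0 ranged from -0.88 to 0.50 (Cd3e), -0.41 to 0.74 (Traj18), -1.62 to 0.31 (Traj33), -0.24 to 2.34 (Trav4-4-dv10), -0.090 to 3.58 (Trbc1), -0.45 to 5.76 (Trbj1-1), -0.13 to 4.38 (Trbj2-1), -0.72 to 1.65 (Trdc), -2.41 to 1.10 (Trgc2), -6.16 to 3.09 (Trgc4) and -2.88 to 0.85 (Trgv2).

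With a tumor the ranges were 31 to 2510 genes called (the most without control replicate 2), 0 to 38 members called, and -0.34 to 0.19 for the members' median. Without control replicate 2, 36 of the 38 were lower. Without control replicate 1, 4 were called, all higher: Traj2, Trav8d-2, Trav10n and Trav14d-3-dv8. Summed SRC-3KO over control ranged from 0.790 to 1.16 for Trac, 0.465 to 0.927 for Trbc, 0.0813 to 0.264 for Trdc and 0.0494 to 0.170 for Trgc. The difference in detected Traj genes ranged from -1 to 0 and that in the Trbj effective number from 0.195 to 0.570. Crossing 0 were Cd3d (-0.53 to 0.20), Cd3g (-0.59 to 0.25), Ncoa3 (-0.56 to 0.19), Trac (-0.34 to 0.21), Traj27 (-0.45 to 0.094), Traj33 (-0.60 to 0.38), Traj50 (-0.33 to 2.96), Trav11 (-0.13 to 0.53), Trav4-4-dv10 (-0.44 to 0.12), Trav7-4 (-0.17 to 0.44), Trbj2-7 (-0.74 to 0.050), Trbv13-2 (-1.01 to 0.13) and Trbv16 (-0.31 to 0.61). Where 1 library remained in a group, it was assumed to vary like the other group. The cause of these changes was not tested.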
